A study of Homo sapiens with 6 samples.

Results

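The genes described are 31 factors of ribosome biogenesis and of transcription by RNA polymerase I (Pol I), chosen by name from the 58299 genes of the count table. They comprise 7 genes of Pol I transcription, MYC, 5 genes of small nucleolar ribonucleoproteins (snoRNPs) and rRNA modification, 7 of small subunit processing, 9 of large subunit processing and 2 abundant nucleolar scaffold proteins. All 31 symbols matched 1 Ensembl gene each, and all 31 passed the expression filter. AC16, a proliferating human line made by fusing ventricular cells with a virus-transformed fibroblast line, was cultured for 48 h with 0.1% DMSO (3 libraries) or with 100 nM doxorubicin (3 libraries). Doxorubicin is an anthracycline that intercalates into DNA and traps type II topoisomerases. The labels name no genetic change and do not say whether the doxorubicin cultures also held DMSO. Nor is it stated that replicates were cultured separately; the tests therefore weigh differences only against the spread among these 6 libraries, which may be technical.

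Ribosomes are assembled in the nucleolus around a precursor rRNA that Pol I transcribes from the rDNA repeats. Guide RNAs in snoRNPs direct methylation and pseudouridylation of this precursor, and separate sets of factors cut and fold it into the small and the large subunit. MYC is known to activate many of these factors, and anthracyclines are known to disturb rDNA transcription. The libraries were selected for poly(A), so the values below are mRNA levels of the factors, and rRNA output was not measured.

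Column totals ran from 17252862 to 19571731 counts. Levels are CPM, the count of a gene relative to the total of its library, adjusted by TMM, a normalization that sets most genes to no change, so a shift of all mRNAs alike would not be seen. In bulk RNA, fewer cells of a kind and less RNA per cell cannot be told apart. Of 12 cardiomyocyte markers, only TTN and ACTC1 reached 1 CPM in any library, while MYH6, MYH7, MYL2, MYL7, RYR2 and NKX2-5 had 0 counts in all DMSO libraries. The 10 fibroblast markers summed to 15521 to 18075 CPM of the library totals in DMSO and to 5651 to 8234 CPM in doxorubicin, with no marker at 0. Of these 10, 8 lay lower in every doxorubicin library than in any DMSO library, collagens COL1A1 and COL1A2 carrying most of the sum, and POSTN lay higher. The 12 cardiomyocyte markers summed to 6.14 to 7.38 and 8.57 to 11.2 CPM, 5 endothelial markers to 14.2 to 16.6 and 9.62 to 11.0 CPM, and 5 blood cell markers to 1.73 to 2.61 and 2.30 to 3.19 CPM. The endothelial fall was that of TEK, while PECAM1, CDH5 and KDR lay higher in every doxorubicin library. These 3 held few counts over the 6 libraries, at 75, 8 and 92. The cardiomyocyte markers TNNI3, ACTN2, RYR2, PLN and TTN lay higher and ACTC1 lower. Except for TTN (783 counts), these were near the counting floor, with 17, 17, 22 and 8 counts for TNNI3, ACTN2, RYR2 and PLN and 44 for ACTC1. The highest DMSO value of PLN was 0.0538 CPM and its lowest doxorubicin value 0.056 CPM. The part of these marker shifts in the results below was not tested. DMSO replicate 1 held the lowest value of its group for 22 of the 31 genes and the highest for 0, and doxorubicin replicate 2 the lowest of its group for 17.

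Doxorubicin moved the genes of this pathway in both directions. At an adjusted p under 0.05 in edgeR's quasi-likelihood test, 8 of the 31 were higher (25.8%) and 14 were lower (45.2%), and 9 were not called. Among all 15358 tested genes, 64.7% were called, 32.7% higher and 32.0% lower. The share of rising genes was thus near or under that of all genes, and the share of falling genes above it. Without DMSO replicate 1 the counts were 7 higher and 15 lower, with PES1 not called and POLR1E called lower. The median log2 fold change was -0.13, against -0.0013 over all tested genes. Values of the 2 groups did not overlap for 20 of the 31 (8 higher, 12 lower), where 69.1% of all tested genes did not overlap, 34.8% higher and 34.3% lower. Changes were small: RRP12, higher, and FBL, lower, were the only called members past 2-fold, where 14.2% of all tested genes were called at least 2-fold higher and 6.26% at least 2-fold lower. The median size of the log2 change, ignoring its sign, was 0.36 for the members and 0.46 for all tested genes. The tested genes were not matched to the members in expression level, and they include genes near the filter limit.

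**Figure D1:**
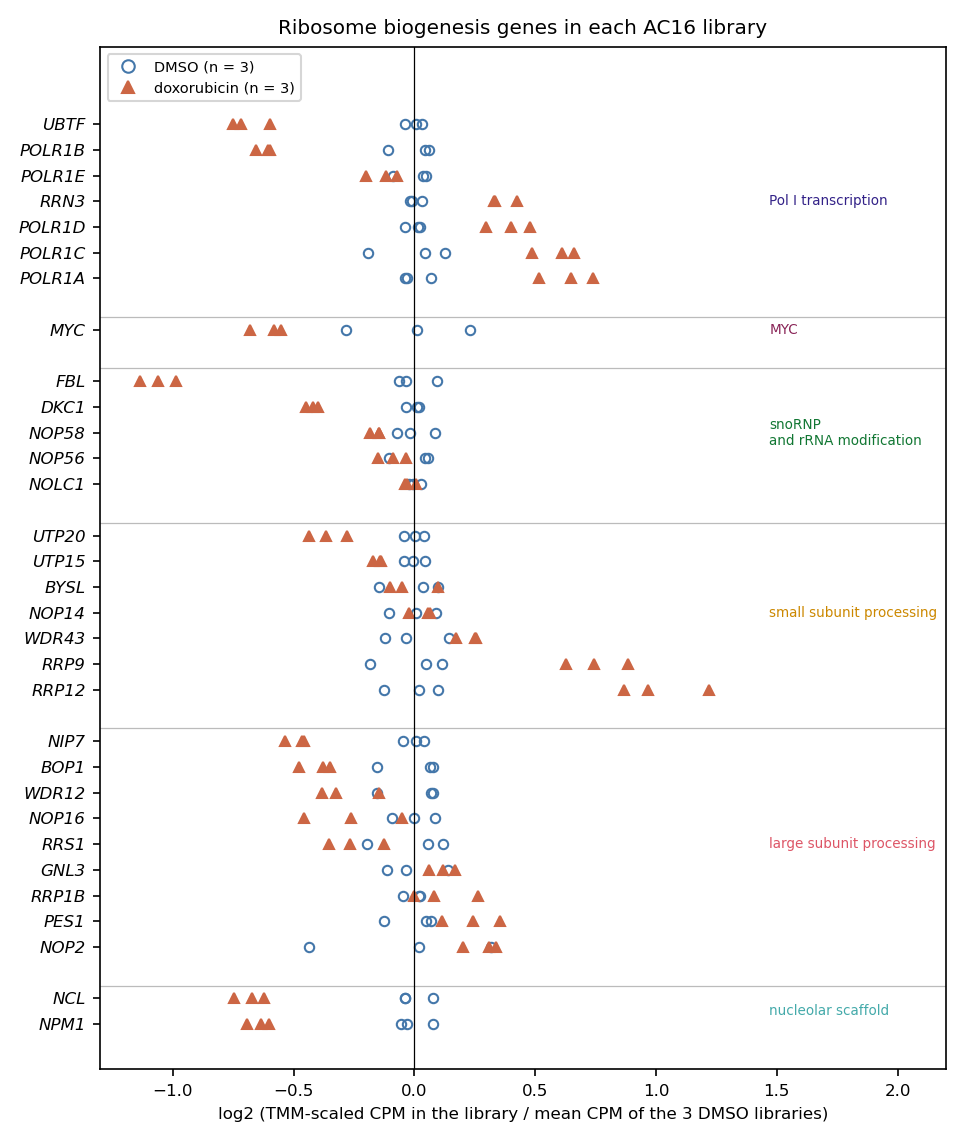
Each point is 1 library: the log2 of its TMM-scaled CPM over the mean of the 3 DMSO libraries (x axis), for the 31 genes grouped by role (y axis), with open circles for DMSO and triangles for doxorubicin. UBTF and POLR1B lie to the left and POLR1A, POLR1C, POLR1D and RRN3 to the right within the Pol I group, FBL is the lowest of all, and RRP12 the highest.

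MYC (chr8:127735434-127741434, GRCh38), the transcription factor, fell. Its CPM was 93.9, 109 and 76.6 in the DMSO libraries, in replicate order here and below, and 58.2, 62.3 and 63.6 in the doxorubicin libraries. The 3 doxorubicin values lay close together and all below the DMSO values, which were more spread. The fall was 1.52-fold (log2 fold change -0.60 ± 0.11 SE, adjusted p = 0.00044, edgeR). The standard error (SE) was taken as the size of the log2 change over the root of its F statistic.

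The MYC network list held MAX, MXD1, MXD3, MXD4, MXI1, MNT, MLX, MLXIP, MGA, MYCL and MYCN. It mixes relatives of MYC with genes around its partner MAX, and not all are partners or antagonists of MYC. Of its 10 tested genes, 7 were higher (70%) and 2 lower (20%). The shares among all tested genes were 32.7% and 32.0%, and MYCN did not pass the expression filter. MXI1 and MXD1 encode repressors that compete with MYC for its partner MAX. MXI1 rose 2.93-fold from 8.13 ± 1.28 to 23.8 ± 4.34 CPM (SD, n = 3; adjusted p = 2e-07, edgeR), and MXD1 rose 2.01-fold from 11.98 ± 1.14 to 24.1 ± 2.58 CPM. The related MXD3 fell 2.71-fold from 23.7 ± 0.321 to 8.71 ± 1.00 CPM, and MLX, a MAX-like protein, fell 1.39-fold. MXD3 shares 40.4% of its exon sequence with neighbours, mainly opposite-strand PRELID1 (11506 counts against 1782), and these unstranded libraries cannot separate the 2. MLX likewise shares 18.1% of its exon sequence with opposite-strand PSMC3IP (2492 counts against 5646).

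MYC and MAX bind the E-box CACGTG, which reads the same on both strands. It was searched in the 250 bases before each start in the RefSeq promoter table (GRCh38.p14). Of the 31 genes, 23 had an entry; POLR1E, MYC, NOP58, NOLC1, RRP12, BOP1, RRP1B and RRS1 had none. The hexamer occurred before 1 of these 23 genes (4.35%), UTP20, and before 7.73% of the 27305 genes of the table. Of the 29 windows of these 23 genes, 10 lie wholly in exons of the deposited annotation, so for 8 genes, such as POLR1A and NOP56, only annotated exon was searched. A match is a description of letters and not a binding site, and a window without one holds only other letters. The following stretches show the 1 window with the hexamer, in capitals at position -10 from the start, and those of the genes with the lowest and the highest log2 fold change among the 23. They are printed 5′ to 3′ on the gene's strand, without the part that the deposited table annotates as exon: UTP20 at chr12:101279855-101280104 (plus strand), FBL at chr19:39846415-39846629 (minus strand) and RRP9 at chr3:51941942-51942154 (minus strand).
UTP20: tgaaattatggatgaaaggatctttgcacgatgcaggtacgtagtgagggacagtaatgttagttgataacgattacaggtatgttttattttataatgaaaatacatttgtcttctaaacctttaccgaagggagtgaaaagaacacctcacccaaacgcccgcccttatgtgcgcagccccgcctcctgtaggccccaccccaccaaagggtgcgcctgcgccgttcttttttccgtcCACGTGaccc
FBL: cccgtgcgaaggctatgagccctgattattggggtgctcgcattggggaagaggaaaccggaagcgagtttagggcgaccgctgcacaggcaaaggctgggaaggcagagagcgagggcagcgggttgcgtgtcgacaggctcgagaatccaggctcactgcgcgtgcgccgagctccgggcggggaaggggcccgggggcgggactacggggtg
RRP9: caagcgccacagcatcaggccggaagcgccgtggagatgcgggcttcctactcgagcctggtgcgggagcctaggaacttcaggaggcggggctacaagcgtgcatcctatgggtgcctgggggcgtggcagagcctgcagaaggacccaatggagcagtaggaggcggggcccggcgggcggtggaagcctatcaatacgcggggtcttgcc

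Within Pol I itself, the mRNAs of the subunits did not move together. The catalytic core is built from the largest subunit, POLR1A, and the second largest, POLR1B. POLR1A (chr2:86020216-86106155) had 157, 158 and 169 CPM in DMSO and 269, 253 and 230.2 CPM in doxorubicin. POLR1B (chr2:112541915-112577150) had 46.4, 41.8 and 47.0 CPM in DMSO and 28.6, 29.8 and 29.7 CPM in doxorubicin. Every doxorubicin library was thus above every DMSO library for POLR1A and below every DMSO library for POLR1B. POLR1A rose 1.56-fold (log2 fold change 0.64 ± 0.07 SE, edgeR adjusted p = 4.9e-07), whereas POLR1B fell 1.53-fold (-0.62 ± 0.08 SE, adjusted p = 3.4e-06).

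POLR1C and POLR1D encode the assembly subunits that Pol I shares with Pol III, the polymerase of tRNA and 5S rRNA. Both rose. POLR1C went from 24.3 ± 2.72 to 36.5 ± 2.28 CPM, a 1.502-fold rise, and POLR1D from 34.6 ± 0.813 to 45.5 ± 2.89 CPM, a 1.31-fold rise (adjusted p = 4.1e-05 and 0.00028, edgeR). The groups of neither gene overlapped. Other genes share 18.2% of the exon bases of POLR1C; the largest single partner covers 7.06% and had 7 counts. POLR1E, a peripheral subunit, was at 73.1 ± 3.81 and 66.9 ± 2.97 CPM and missed the threshold (adjusted p = 0.11), which it passed on the lower side without DMSO replicate 1 (adjusted p = 0.046).

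Of the factors that bring Pol I to the rDNA, UBTF fell and RRN3 rose. UBTF, an HMG-box protein that coats active rDNA, had 188, 194 and 197 CPM in DMSO and 127, 115 and 117 CPM in doxorubicin. RRN3, which makes the polymerase competent to initiate, had 93.8, 96.5 and 93.3 CPM in DMSO and 127, 119 and 119 CPM in doxorubicin. Neither gene's groups overlapped. UBTF fell 1.61-fold (log2 fold change -0.69 ± 0.06 SE, edgeR adjusted p = 7.7e-08), whereas RRN3 rose 1.29-fold (0.36 ± 0.06 SE, adjusted p = 6.7e-05). RRN3 has 3 annotated pseudogene copies with 767 counts against its own 11833, so reads could be split between them. Summed per kb of exon over the 7 Pol I genes, the levels of the groups overlapped (103 to 108 in DMSO, 105 to 109 CPM per kb in doxorubicin).

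Among 14 further genes of the Pol I machinery, the median log2 fold change was -0.19. Against 32.7% higher and 32.0% lower among all tested genes, 3 of the 14 were higher (21.4%, TCOF1, POLR2L and POLR2H) and 7 lower (50%). Those lower included TAF1A, TAF1B and TAF1D, which encode subunits of the promoter selectivity factor; TAF1C, another of its subunits, was not called (log2 fold change -0.16, adjusted p = 0.060, edgeR). Also lower was POLR1F, a stalk subunit, which fell 1.42-fold from 54.2 ± 2.0003 to 38.2 ± 0.939 CPM. POLR2E and POLR2H encode subunits common to all nuclear polymerases. POLR2E fell 1.41-fold from 227 ± 11.6 to 160.7 ± 7.17 CPM and POLR2H rose 1.81-fold from 40.5 ± 1.17 to 73.3 ± 3.86 CPM (adjusted p = 2.3e-08, edgeR). POLR2L, another shared subunit, rose 1.34-fold; 22.5% of its exon bases lie in opposite-strand CD151, with 24920 counts against 10426. TCOF1, TAF1A, TAF1B, TAF1C and TAF1D were picked after their values were seen.

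The split between the mRNAs of the 2 largest subunits was also present in Pol III. POLR3A rose 1.52-fold, from 69.97 ± 2.34 to 106 ± 4.51 CPM, and POLR3B fell 2.60-fold, from 43.2 ± 3.57 to 16.6 ± 0.703 CPM (adjusted p = 5.2e-07 and 1.1e-09, edgeR). They were the genes with the highest and the lowest log2 fold change among the 22 of Pol III. Of these 22, 6 were higher and 6 lower, 27.3% each, against 32.7% and 32.0% of all tested genes. POLR3D, another subunit, rose 1.48-fold, and POLR3G, an isoform of a subunit known from stem cells and tumours, fell 1.43-fold from 34.2 ± 2.69 to 23.9 ± 5.07 CPM. Per kb of exon, POLR1A stood at 1.58, 1.77 and 1.68 times POLR1B in DMSO and at 4.40, 3.97 and 3.63 times in doxorubicin. POLR3A stood at 0.892, 0.972 and 0.794 times POLR3B in DMSO and at 3.68, 3.57 and 3.19 times in doxorubicin. The groups lay apart in both ratios. UBTF stood at 1.21 ± 0.0358 times RRN3 in DMSO and at 0.585 ± 0.0121 times in doxorubicin (SD, n = 3). The 9 ratios given here and below were picked after the values of their genes were seen and are described without a test.

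**Figure D2:**
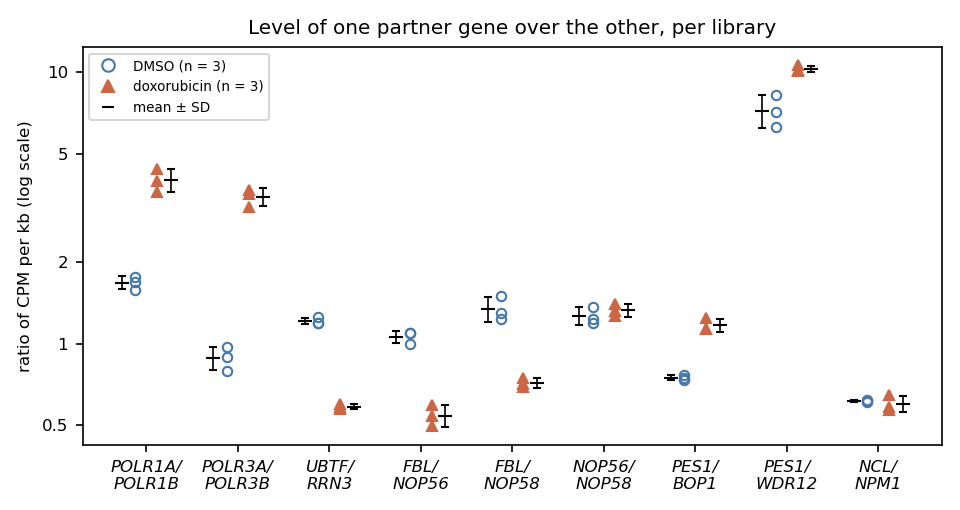
Ratio of the levels (CPM per kb of exon, log axis) of genes whose proteins act in 1 complex or step, for each DMSO library (open circles) and each doxorubicin library (triangles), with mean ± SD (n = 3) as black marks. POLR1A over POLR1B and POLR3A over POLR3B are higher after doxorubicin, UBTF over RRN3 and FBL over its partners are lower, and NOP56 over NOP58 and NCL over NPM1 overlap between groups.

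FBL (chr19:39834458-39846414) had the largest fall of the 31 genes. It encodes fibrillarin, the methyltransferase of box C/D snoRNPs, and its promoter stretch is printed above. Its CPM was 105, 108 and 118 in DMSO and 50.2, 55.6 and 52.8 in doxorubicin, with a wide gap between the groups. The fall was 2.08-fold (log2 fold change -1.06 ± 0.07 SE, adjusted p = 1.4e-09, edgeR).

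The mRNAs of the scaffold proteins that hold fibrillarin in the same particle changed far less. NOP56 had 240.2, 268 and 267 CPM in DMSO and 252, 233 and 243 CPM in doxorubicin, which overlap, and was not called (adjusted p = 0.23, edgeR). NOP58 went from 125 ± 6.999 to 112 ± 1.63 CPM and was called lower at an adjusted p of 0.035. That call was lost without DMSO replicate 2 (adjusted p = 0.17) or doxorubicin replicate 1, 2 or 3 (0.059, 0.068 and 0.094), in DESeq2 (0.054), with upper-quartile scaling (0.056) or library totals only (0.11), and with a filter at 1 CPM (0.05). Per kb of exon, FBL stood at 1.06 ± 0.0563 times NOP56 in DMSO and 0.542 ± 0.0494 times in doxorubicin (n = 3), while NOP56 over NOP58 was 1.27 ± 0.0939 and 1.33 ± 0.0704. The groups lay apart in the first ratio and overlapped in the second. FBL over NOP58 likewise went from 1.34 ± 0.141 to 0.717 ± 0.0281, with the groups apart.

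DKC1, dyskerin, is the pseudouridine synthase of box H/ACA snoRNPs and of telomerase. It had 162, 168 and 167 CPM in DMSO and 121, 126 and 124 CPM in doxorubicin, 2 tight groups that did not overlap. It fell 1.34-fold (log2 fold change -0.42 ± 0.06 SE, adjusted p = 9e-06, edgeR). NOLC1, a nucleolar chaperone of snoRNPs, had the values 211, 219 and 214 against 209, 215 and 209.9 CPM and was not called (adjusted p = 0.78). In the wider list of 12 snoRNP genes, SHQ1, a dyskerin assembly factor, was the 1 that rose (1.45-fold). SNU13, RUVBL2, NUFIP1, NHP2 and NOP10 were lower. The shares were 8.33% higher and 41.7% lower, against 32.7% and 32.0% of all tested genes. SNU13, the protein that first binds the C/D motif, fell 1.53-fold from 174 ± 15.1 to 114 ± 13.2 CPM, and RUVBL2, an ATPase of particle assembly, fell 1.503-fold from 224 ± 8.70 to 149 ± 9.85 CPM. NUFIP1, NHP2 and NOP10 were picked after their values were seen.

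In small subunit processing, 3 of 7 members rose (42.9%) and 1 fell (14.3%), against 32.7% and 32.0% of all tested genes. RRP12 (chr10:97356358-97426076), a HEAT-repeat factor of subunit maturation and export, had the largest rise of all 31 genes. Its CPM was 86.0, 101 and 95.0 in DMSO and 219, 171 and 184 in doxorubicin, with replicate 1 the highest of the treated libraries. The rise was 2.04-fold (log2 fold change 1.03 ± 0.09 SE, adjusted p = 1.5e-07, edgeR).

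RRP9, the protein that marks the U3 snoRNP, rose as well. It had 31.6, 37.1 and 38.9 CPM in DMSO and 66.3, 55.5 and 60.0 CPM in doxorubicin, without overlap, a 1.69-fold rise (log2 fold change 0.75 ± 0.09 SE, adjusted p = 1.6e-06, edgeR). WDR43, of the early t-UTP group, rose 1.17-fold from 86.4 ± 8.10 to 101 ± 3.32 CPM (adjusted p = 0.012), a call that was lost without DMSO replicate 3 (0.069). UTP20, a very large component of the early small subunit precursor, moved the other way, with 116, 123 and 119.8 CPM in DMSO and 92.8, 98.6 and 88.5 CPM in doxorubicin. It fell 1.28-fold (adjusted p = 0.00012) and is the gene whose window above holds the E-box. UTP15, NOP14 and BYSL were not called, at adjusted p of 0.094, 0.68 and 0.87. NOP14 shares 17.1% of its exon bases with opposite-strand NOP14-AS1, with 2876 counts against 11556. Summed per kb of exon, the 7 genes stood at 121 to 135 CPM per kb in DMSO and at 151 to 168 in doxorubicin. Most of this rise was in RRP9 (means 22.7 and 38.4) and RRP12 (11.0 and 22.4), while UTP20, UTP15 and BYSL had lower means. The snoRNP members summed to 222 to 235 in DMSO and 185 to 187 in doxorubicin. NCL with NPM1 summed to 398 to 434 and 257 to 266, and the large subunit members overlapped (206 to 233 and 194 to 215).

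Among 50 further small subunit genes, 10 were higher (20%), 23 lower (46%) and 17 not called, against 32.7% and 32.0% of all tested genes. The median log2 fold change of the 50 was -0.07. RCL1, a cyclase-like factor, rose 1.72-fold from 22.4 ± 2.48 to 38.6 ± 1.53 CPM, and IMP3, a U3 snoRNP protein, rose 1.71-fold from 21.4 ± 0.735 to 36.6 ± 1.69 CPM. IMP3 shares 59.3% of its exon sequence, mainly with opposite-strand SNX33, which had 8214 counts against 3170. NOL10 fell 1.46-fold from 47.7 ± 2.01 to 32.6 ± 1.49 CPM and RRP36 fell 1.43-fold from 106.6 ± 4.62 to 74.6 ± 3.85 CPM.

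In large subunit processing, 5 of 9 members fell (55.6%) and 1, PES1, rose (11.1%), against 32.0% and 32.7% of all tested genes. PES1, BOP1 and WDR12 form the PeBoW complex, which is needed to make the large subunit rRNAs. BOP1 had 190.2, 222 and 223 CPM in DMSO and 163, 152 and 166 CPM in doxorubicin, all below the DMSO values. PES1 had 178, 204 and 201 CPM in DMSO and 249, 210.4 and 230.1 CPM in doxorubicin, all above them. WDR12 had 56.7, 57.0 and 48.6 CPM in DMSO and 48.8, 41.5 and 43.2 CPM in doxorubicin, with 1 treated value inside the DMSO range. BOP1 fell 1.32-fold and WDR12 1.22-fold, and PES1 rose 1.18-fold (adjusted p = 0.00011, 0.008 and 0.0087, edgeR). Without DMSO replicate 1, PES1 was not called (adjusted p = 0.058). Per kb of exon, PES1 stood at 0.749 ± 0.0145 times BOP1 in DMSO and 1.17 ± 0.0655 times in doxorubicin (n = 3), and PES1 over WDR12 went from 7.22 ± 0.996 to 10.3 ± 0.281, with the groups apart in both.

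NIP7, a factor of pre-rRNA processing, had 78.2, 83.2 and 81.2 CPM in DMSO and 58.6, 55.8 and 58.9 CPM in doxorubicin. The groups lay well apart, and the fall was 1.40-fold (log2 fold change -0.49 ± 0.06 SE, adjusted p = 6.2e-06, edgeR). RRS1, which helps to load the 5S particle, and NOP16 were also called lower, at 66.5 ± 7.50 against 56.1 ± 4.55 CPM and 27.3 ± 1.67 against 23.0 ± 3.27 CPM (adjusted p = 0.021 and 0.046), with overlapping groups. The RRS1 call was lost without DMSO replicate 2 or 3 or doxorubicin replicate 2 or 3 (adjusted p = 0.073, 0.097, 0.10 and 0.081). That of NOP16 was lost without DMSO replicate 2 or 3 or doxorubicin replicate 1 or 2 (0.086, 0.13, 0.19 and 0.10), in DESeq2 (0.091), with RLE, upper-quartile or library-total scaling (0.052, 0.061 and 0.085) and with a filter at 1 CPM (0.059). Without DMSO replicate 2, DMSO replicate 3 or doxorubicin replicate 2, 3 large subunit genes were called lower in place of 5. NOP16 shares 20.0% of its exon bases with other genes, and the largest partner is opposite-strand ARL10 (3158 counts against 2763).

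GNL3, nucleostemin, a GTPase known from stem and tumour cells, was at 76.1 ± 6.90 and 82.5 ± 2.97 CPM and was not called (adjusted p = 0.17, edgeR). RRP1B was not called either, at 121 ± 3.36 and 132 ± 12.4 CPM (adjusted p = 0.15). NOP2, a methyltransferase of the large rRNA, had only 156 counts in all 6 libraries, at 1.28 ± 0.326 and 1.56 ± 0.0764 CPM (adjusted p = 0.40). Of its exon bases, 53.3% lie in a same-strand Ensembl gene that is listed at 0 counts, and the treatment of shared reads is not stated in the sources used, so its level may be understated.

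Of the 48 further large subunit genes, 16 were higher (33.3%), 14 lower (29.2%) and 18 not called, near the 32.7% and 32.0% of all tested genes. The median log2 fold change of the 48 was 0.05. URB1 and URB2 encode early factors known to act together. URB1 rose 1.89-fold from 140.2 ± 2.95 to 264.9 ± 24.6 CPM (adjusted p = 9.1e-09, edgeR) and URB2 fell 1.45-fold from 64.0 ± 7.69 to 44.03 ± 0.601 CPM (adjusted p = 3.1e-05). GNL2, a nucleolar GTPase, rose 1.78-fold from 77.8 ± 1.95 to 139 ± 6.11 CPM, and TEX10, of the rixosome that removes spacer RNA, fell 1.34-fold from 71.8 ± 1.11 to 53.7 ± 2.46 CPM.

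NCL, nucleolin, and NPM1, nucleophosmin, are RNA-binding proteins and chaperones that make up much of the nucleolus. NCL (chr2:231453531-231483641) had 1053, 1143 and 1053 CPM in DMSO and 704, 645 and 679 CPM in doxorubicin. NPM1 (chr5:171387116-171411137) had 958, 1031 and 941 CPM in DMSO and 604, 629 and 643 CPM in doxorubicin. No doxorubicin library reached the lowest DMSO value of either gene. NCL fell 1.60-fold and NPM1 1.56-fold (log2 fold changes -0.68 ± 0.06 and -0.64 ± 0.06 SE, adjusted p = 9.4e-08 and 1.4e-07, edgeR), and their ratio per kb of exon overlapped between groups (0.613 ± 0.00534 and 0.598 ± 0.0403, n = 3). NPM1 has 49 annotated pseudogene copies, which hold 3293 counts against its own 88016, so its level is uncertain by the reads they share.

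Levels can be compared between genes only per length. The length used is that of all annotated exons of a gene, such as 11210 bases for POLR1D and 9098 for WDR12. Places and ratios between genes therefore depend in part on the annotation. In DMSO, NPM1 was the highest of the 31 at 255 ± 12.5 CPM per kb of exon, followed by NCL at 156 ± 7.49. BOP1, NOLC1, FBL and NOP56 came next at 57.0 ± 5.03, 54.0 ± 1.00, 50.7 ± 2.99 and 47.9 ± 2.93, and neighbours among these 4 differed by little more than 1 SD. POLR1C and POLR1D, at 4.38 ± 0.491 and 3.09 ± 0.0725, were the lowest apart from NOP2. After doxorubicin the order kept NPM1 and NCL on top, at 163 ± 5.14 and 97.6 ± 4.23 CPM per kb. FBL moved from the 5th to the 17th place, at 24.3 ± 1.24, and RRP9 from the 19th to the 7th, at 38.4 ± 3.43.

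**Figure D3:**
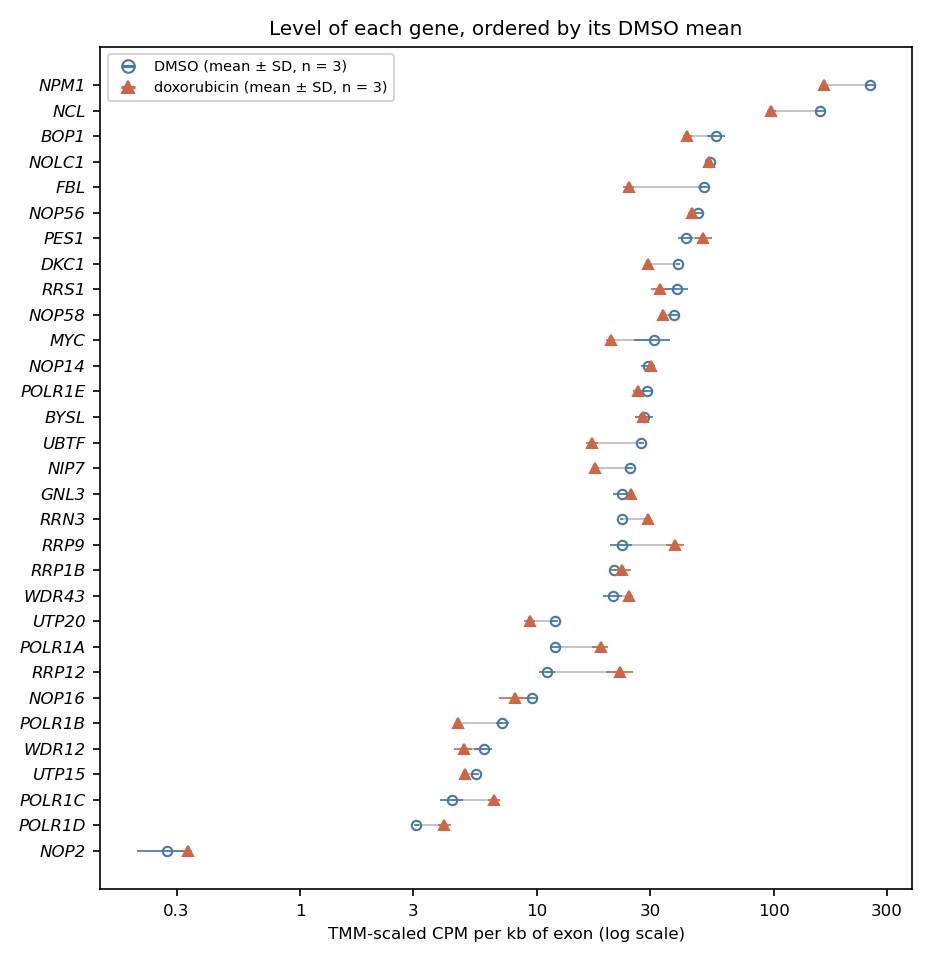
Level of each of the 31 genes in CPM per kb of exon (x axis, log scale) as mean ± SD over 3 DMSO libraries (circles) and 3 doxorubicin libraries (triangles), ordered by the DMSO mean. NPM1 and NCL are the highest in both groups, and FBL, UBTF, RRP9 and RRP12 show the widest gaps between the groups among the genes between 10 and 60 CPM per kb.

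Across the 124 further Pol I, snoRNP, small and large subunit genes, all of which passed the expression filter, 30 were higher (24.2%), 49 lower (39.5%) and 45 not called, against 32.7% and 32.0% of all tested genes. Their median log2 fold change was -0.06. All their fitted log2 fold changes lay between -0.61 and 0.92, short of 2-fold. Of these genes, 9 (7.26%) changed at least 1.5-fold in size, whether called or not, as did 10 of the 31 (32.3%) and 40.3% of all tested genes. These shares were not matched for expression level. Both the 124 and the 31 genes were chosen with earlier results of these data known.

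**Figure D4:**
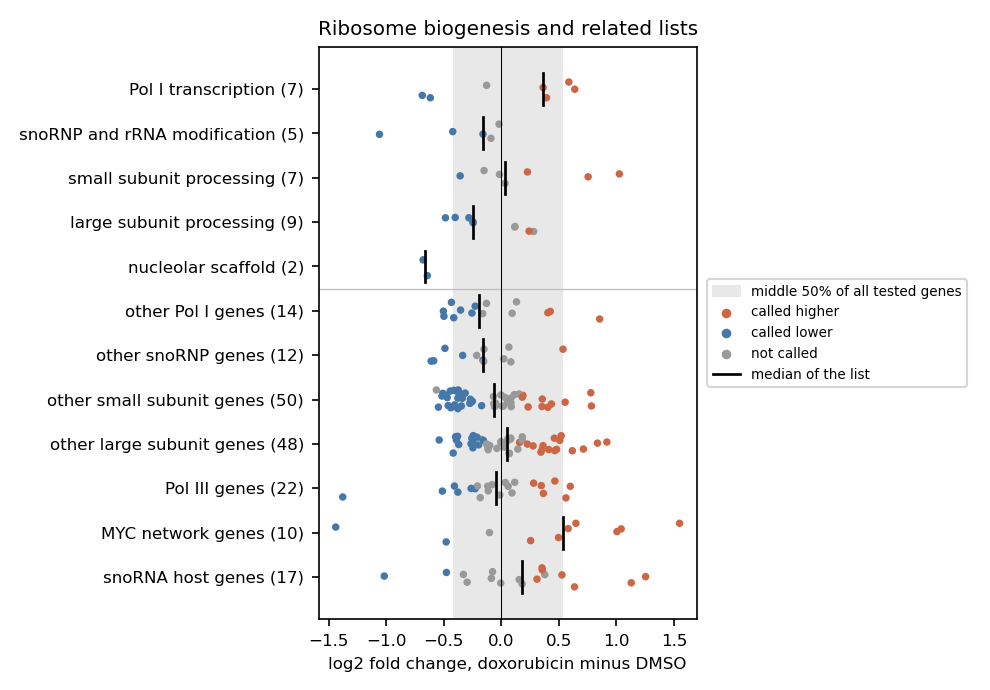
Log2 fold change of doxorubicin minus DMSO (x axis) for every tested gene of each list (y axis, number of genes in brackets), with called genes in colour, grey points for those not called, a black bar for the median of the list and a grey band for the middle 50% of all 15358 tested genes. The Pol I members fall on both sides of 0, the further Pol I, snoRNP and subunit genes run from -0.61 to 0.92, and POLR3B and MXD3 lie farthest to the left.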

How the data were processed

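The authors deposited raw counts per gene for 6 unstranded poly(A) libraries, whose columns follow featureCounts output, per the file headers. STAR, SAMtools, Subread, featureCounts and the build GRCh38 (hg38) are named in the submitters' processing notes; versions and settings, and whether reads or pairs were counted, are not given in the sources used here. A table pairing IDs with symbols gave 57717 of the 58299 IDs a symbol, and gene types, exon overlaps and other names came from GENCODE release 29. Positions are 1-based, from the deposited table, and span the first to the last exon. Columns of other samples numbered 0.

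Doxorubicin was compared with DMSO, two-sided and without covariates, by the robust quasi-likelihood test of edgeR 4.0.16 (R 4.3.3) after TMM scaling and filterByExpr (minimum count 10, minimum total 15), with Benjamini-Hochberg adjustment over 15358 genes. The procedure was tested on simulated data. Replicates of a group differed by more than sampling noise (chi-square per degree of freedom 2.82 to 9.39), which does not show that they were separate cultures. Each library counted as 1 sample. Alternatives were DESeq2 1.42.0, RLE, upper-quartile and library-total scaling, other filters, the 50 most abundant genes left out, a replicate block and each library left out.

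The members and lists were chosen with earlier results of these data known. All members are named. Each wider list contributes its 2 highest and 2 lowest called genes by log2 fold change, given a mean log2 CPM of 1 or more, and a list of under 5 genes contributes all. For the RefSeq promoter table, the 30 bases after the start were found in a GENCODE transcript of the gene for 26 of 29 member windows, which checked the strand. The windows not found were those of NOP14 and UTP20 and start 2 of RRN3, so the check does not cover the window with the hexamer.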

Additional observations from a re-analysis of the deposited data

How the results depend on the processing

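Over 14 alternatives, the members called higher numbered 7 to 8 and those called lower 11 to 15, the further pathway genes 27 to 35 and 41 to 50, and all tested genes 4703 to 6100 and 4494 to 5190, each within 1.5 times the reported count. Of 434 member values under an alternative, 403 kept their direction and side of the threshold, 23 were no longer called, 1 became called and 7 changed sign; of 406 values of other named genes, 400, 3, 0 and 3 did. The calls lost were those of NOP58, NOP16, RRS1, PES1, WDR43 and RPL11, and the sign changed only in genes that were not called. BYSL turned to 0.00014 with upper-quartile scaling and 0.026 with library totals only, and ran from -0.091 to 0.031 with 1 library left out. NOLC1 turned to 0.021 with library totals only and RPL5 to -0.016 with no filter. With 1 library left out, NOP14 ran from -0.024 to 0.075 and RPL5 from -0.012 to 0.033. The cause was not tested. Library totals moved the median of all genes to 0.04.

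With the replicate number as a block, 8 members were higher and 14 lower, and of all genes 5003 and 4917. The labels do not say what a number stands for, and deviations of same-numbered libraries correlated at 0.05, -0.02 and 0.03 across genes; DMSO replicates 2 and 3 did not correlate best with their own number. At this depth NOP2, with 156 counts, limits any statement on its change.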

Other observations

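Many snoRNAs are cut from introns of host genes, many of them noncoding, whose spliced poly(A) RNA these libraries read. Of 17 such hosts, edgeR called 7 higher after doxorubicin (GAS5, SNHG5, SNHG8, SNHG15, SNHG29, SNHG32 and ZFAS1), or 41.2%. Another 2 were lower (SNHG1 and SNHG3), or 11.8%, and 8 were not called. Among all tested genes, 32.7% were higher and 32.0% lower. The median log2 fold change of the hosts was 0.18. SNHG32 rose 2.39-fold from 97.7 ± 12.1 to 233 ± 19.5 CPM (SD, n = 3; adjusted p = 1.7e-08, edgeR) and ZFAS1 rose 2.19-fold from 19.0 ± 2.86 to 41.6 ± 4.65 CPM. SNHG32 is typed as protein coding in GENCODE release 29, unlike the other 16. SNHG3 fell 2.03-fold from 82.9 ± 10.96 to 40.9 ± 6.91 CPM and SNHG1 fell 1.39-fold from 115 ± 13.6 to 82.5 ± 7.11 CPM. Other genes share 46.9% of the exon bases of ZFAS1, 15.3% of SNHG1 and 10.96% of SNHG3. The largest partner of SNHG3 is same-strand RCC1, which covers 5.92% of its exon bases and had 13224 counts against 6829. GAS5, SNHG5, SNHG8, SNHG15 and SNHG29 were picked after their values were seen.

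RPL5 and RPL11 form, with 5S rRNA, the particle that can bind MDM2 when ribosome assembly is disturbed. RPL5 was at 579 ± 20.5 CPM in DMSO and 584 ± 14.4 CPM in doxorubicin and was not called (adjusted p = 0.87, edgeR). RPL11 rose 1.17-fold from 468 ± 36.1 to 546 ± 48.0 CPM (adjusted p = 0.015). That call was lost without DMSO replicate 1 or 2 or doxorubicin replicate 3 (adjusted p = 0.071, 0.090 and 0.088), and the values of the groups overlapped for both genes. RPL5 has 35 annotated pseudogene copies with 289 counts against its own 63753.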
